A study of Brassica rapa subsp. pekinensis with 6 samples.

Results

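The response of Chinese cabbage (*Brassica rapa* ssp. *pekinensis*) shoots to 2 days of low temperature (LT, 12 °C after growth at 22 °C) was read from 4 of the 6 samples of the series, with the inbred lines Chiifu and Kenshin giving a 22 °C sample and a 12 °C sample each. Chiifu is the temperate line on whose gene models the array was built, and Kenshin is a line of warm climates known for heat tolerance. Plants of all groups were grown for about 3 weeks at 22 °C with 16 h of light and 8 h of dark. The 22 °C groups were collected then, and the 12 °C groups were collected after 2 more days at 12 °C in the same light cycle. The other 2 samples came from plants that spent a further 3 h at 28 °C after the LT treatment, and they enter the intensity minimum, the mean intensity and the estimate of spread, while some of their values are given beside the LT response. The labels name no mutation, transgene or chemical treatment, and each sample held shoots of 5 plants. Because the 12 °C plants were 2 days older than the 22 °C plants, age and temperature cannot be told apart.

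Messenger RNA was measured as probe intensity (PI) on the Br135K microarray, a NimbleGen array with probes at the 3′ end of each gene model of Chiifu. A value in Kenshin therefore depends on how well Kenshin RNA pairs with Chiifu probes. This cancels only in part in a ratio between 2 Kenshin samples. Background signal and the 50 added to each PI do not scale with the pairing. The array carried 41173 genes, identified by Bra numbers, and the genes kept were the 26948 (65.5%) with a PI above 500 in at least 1 of the 6 samples. Of these, 20865 were above 500 in all 6 samples, 426 only in samples at 12 °C, 603 only in samples at 22 °C and 650 only in samples at 28 °C. A gene of the 426 or the 603 entered through the temperature at which it was high, and it had to differ between temperatures. At the limit, 470 genes had a highest PI between 500 and 550 and 494 genes had one between 450 and 500. The response of a line was the log2 of PI at 12 °C over PI at 22 °C, with 50 added to each PI, so that 1 on this scale is a 2-fold difference. Quartiles of PI hardly differed between the samples, with medians over all genes between 965.1 and 1034.

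There was 1 sample for each line and temperature, and whether its deposited values average several arrays is not settled by the sources used here. This leaves no replicate error within a line, and the 2 lines were the only repeats of a temperature. Counts of genes past a fold in 1 line therefore have no p-value. A difference in PI of a whole shoot cannot separate fewer cells that express a gene from less RNA per cell. Only 1 of the 41173 identifiers matched the RefSeq gene table used here, so names were taken from the study, and cold or photosynthesis genes could not be picked by name as a check of the tissue.

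Plants that meet low but non-freezing temperatures go through cold acclimation. Transcription factors of the CBF/DREB1 family switch on within hours, and their targets, the COR genes, encode dehydrins, other protective proteins and enzymes for sugars and lipids. Photosynthesis, growth and hormone genes are adjusted over the following days, and small heat shock proteins (sHSPs), chaperones that bind unfolding proteins, are known best from heat but in some plants also appear in the cold.

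The LT response was limited to a minority of genes in both lines, and the ratios spread wider in Kenshin. In Chiifu, 12503 of the 26948 genes (46.4%) lay within 1.2-fold between 12 and 22 °C, and in Kenshin 12187 did (45.2%). The median log2 ratio was -0.02 in Chiifu and 0.02 in Kenshin. Because the deposited values had nearly equal quartiles in all samples, a shift of a whole line could not be read from these medians. The median absolute log2 ratio was 0.288 in Chiifu and 0.297 in Kenshin, and the typical gene thus differed as little in one line as in the other. The tails were longer in Kenshin, where the SD of the log2 ratio was 0.737 against 0.63 in Chiifu. The middle 90% of genes ran from -0.93 to 0.97 in Chiifu, while in Kenshin it ran from -1.14 to 1.01. The 15 control features of the array, which are not Bra genes, also spread wider in Kenshin. Their median absolute log2 ratio was 0.337 there and 0.192 in Chiifu, with ranges of -1.28 to 0.66 and -0.48 to 0.41. How far array noise adds to the wider spread in Kenshin was not tested.

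At 2-fold or more, 1236 genes were up in Chiifu (4.59% of those tested) and 1171 were down (4.35%). In Kenshin, 1377 were up (5.11%) and 1693 were down (6.28%). Genes that were higher at 12 °C made up 51.4% of those past 2-fold in Chiifu and 44.9% in Kenshin, so Kenshin had more genes down than up and Chiifu did not. The gap widened with size on the lower side. At 8-fold or more (a log2 ratio of 3), 66 genes were up and 10 were down in Chiifu, whereas 125 were up and 99 were down in Kenshin. At 4-fold or more, Chiifu had 247 up and 130 down, and Kenshin had 332 up and 404 down. With 1 value per line and temperature, this difference between the lines was not tested. Both lines together held 4371 genes (16.2%) past 2-fold in at least 1 line.

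The size of the ratios depended on how bright a gene was. When the genes were split in 10 equal bins by their mean log2 PI over all 6 samples, the SD of the log2 ratio went down from 0.946 in the dimmest bin (median of the mean PI 337) to 0.3 in the brightest (15510) in Chiifu, and from 1.19 to 0.296 in Kenshin. The SD was larger in Kenshin in each bin but the brightest. The median absolute ratio went from 0.488 to 0.183 in Chiifu and, in Kenshin, from 0.587 to 0.169, which shows that ordinary genes, and not only the extremes, varied less when they were bright. In the dimmest bin, 12.0% of genes were up and 10.6% down in Chiifu, and 14.4% were up and 16.4% down in Kenshin. In the brightest bin these shares were 0.186%, 0.297%, 0.482% and 0.334%. A fixed 2-fold cutoff thus drew 1133 genes from the dimmest bin and 32 from the brightest. The excess of lower over higher genes in Kenshin was present in 9 of the 10 bins, the brightest being the exception. Without replicates, the part of array noise in these spreads was not tested.

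**Figure D1:**
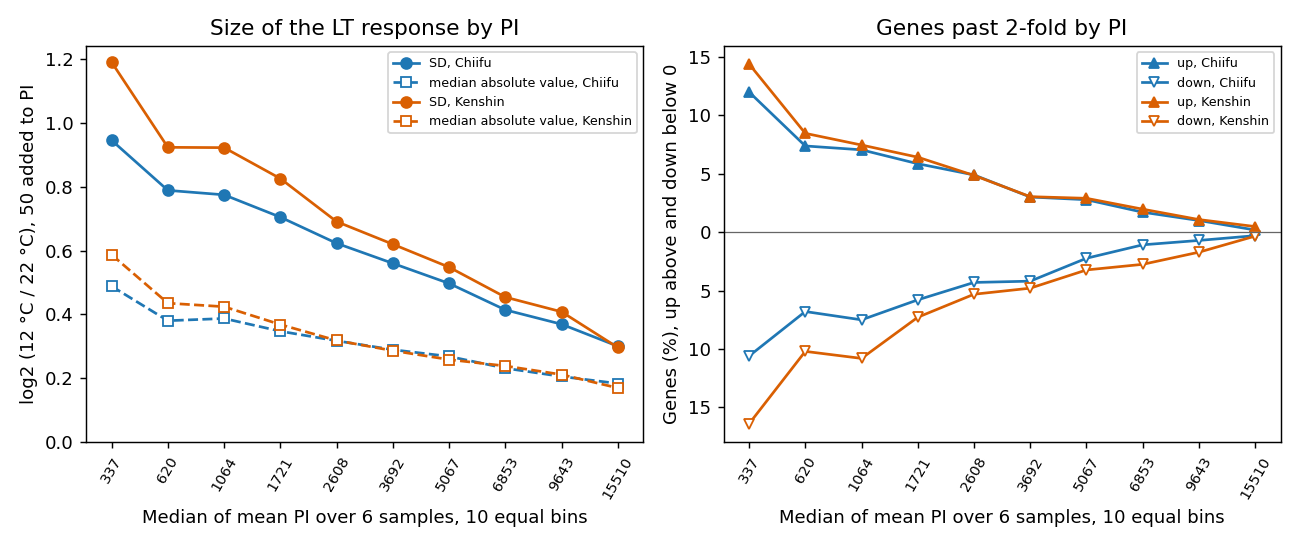
LT response by brightness of the gene. The x axes give the median of the mean PI in each of 10 equal bins; the left panel plots the SD (filled) and the median absolute value (open) of the log2 ratio of 12 over 22 °C in Chiifu (blue) and Kenshin (orange), and the right panel plots the percentage of genes at least 2-fold up (above 0) and down (below 0). The SD goes from 0.946 to 0.3 in Chiifu and, in Kenshin, from 1.19 to 0.296.

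The lines agreed in direction for most strong responders and only weakly for all genes together. The ratios of the lines share no sample, and over the 26948 genes their Pearson correlation was 0.499 and their Spearman correlation 0.384, with the same sign in 62.7% of genes. These are descriptions across genes, which are not independent replicates, and both ratios come from the same probes. Among the 4371 genes past 2-fold in at least 1 line, 77.9% had the same sign in both, and among the other 22577 genes 59.7% did. Past 2-fold in both lines, 470 genes were up (1.74% of those tested) and 568 were down (2.11%), together 23.7% of the 4371. Another 3265 (74.7%) passed in a single line, and 68 passed in opposite directions (0.252% of those tested).

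**Figure D2:**
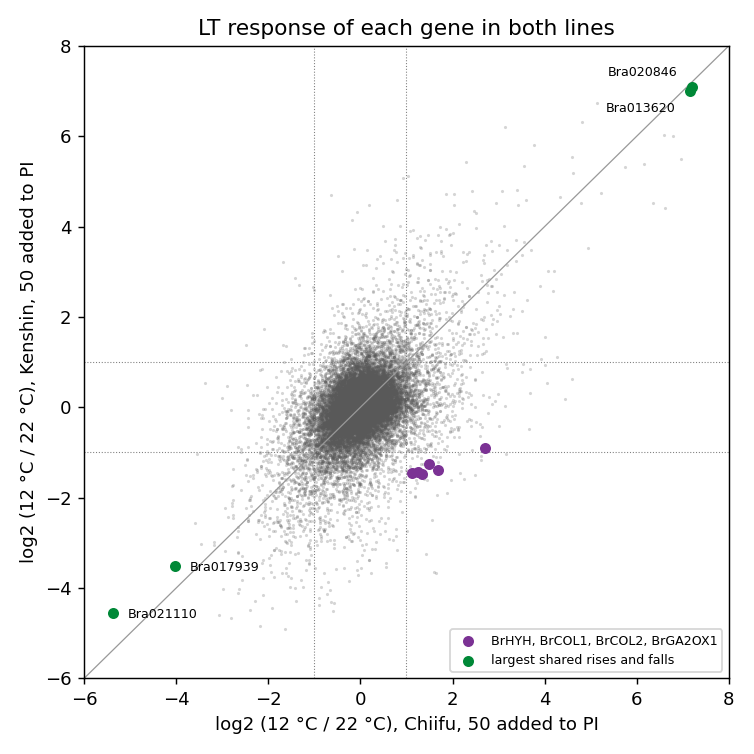
LT response of each of the 26948 genes, with the log2 ratio of 12 over 22 °C (50 added to PI) in Chiifu on the x axis and in Kenshin on the y axis. Dotted lines mark 2-fold and the solid line marks equal responses; the cloud runs along that line (Pearson correlation 0.499), with the largest shared changes (green) at its ends and 6 light-growth genes (purple) at lower right.

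For genes up at 12 °C, the share with the same sign in the other line grew with the size of the response. Genes between 1 and 1.5 up on the log2 scale in Chiifu (712 genes) had a median log2 ratio of 0.41 in Kenshin, and 74.3% of them were above 0 there, against 52.0% of all genes. Genes over 3 up in Chiifu (66 genes) had a median of 3.65 there and of 3.08 in Kenshin, and 63 of them (95.5%) were above 0. The same held for choice in Kenshin, where the 760 genes between 1 and 1.5 up had a median of 0.36 in Chiifu and the 125 genes over 3 up had a median of 1.85 beside 3.59 in Kenshin itself. A gene chosen as strong in Kenshin was therefore usually smaller in Chiifu, whereas the strongest genes of Chiifu were nearly as large in Kenshin. On the lower side, the 120 genes between 2 and 3 down in Chiifu had a median of -1.73 in Kenshin, and the 305 such genes of Kenshin had a median of -1.07 in Chiifu. The share below 0 in the other line did not grow throughout for genes that were down. It was 92.5% of the 120 and 8 of the 10 genes over 3 down in Chiifu, and 88.2% of the 305 and 83.8% of the 99 genes over 3 down in Kenshin. Of the 1171 genes down in Chiifu, 48.5% were down 2-fold in Kenshin as well, and of the 1693 genes down in Kenshin, 33.5% were down in Chiifu. For the genes that were up, these shares were 38.0% of 1236 and 34.1% of 1377. Because genes were chosen in one line for being extreme there, a smaller value in the other line follows in part from the choice.

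**Figure D3:**
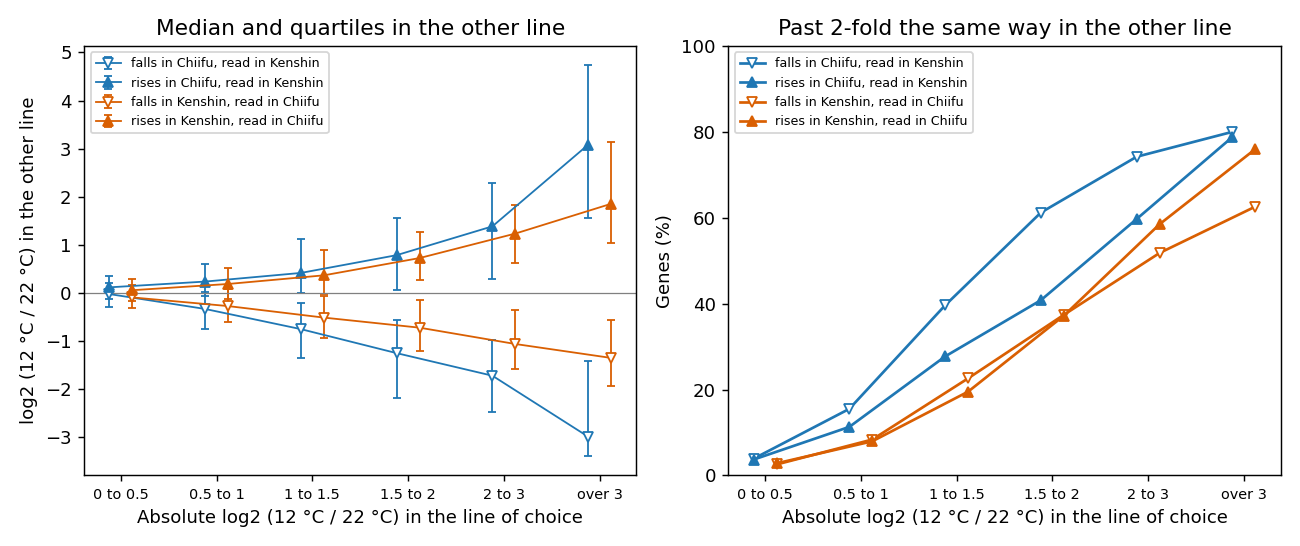
Response in one line of genes chosen by their response in the other. The x axes give the class of absolute log2 ratio in the line of choice; the left panel plots the median (points) and quartiles (bars) of the log2 ratio in the other line, and the right panel the percentage past 2-fold in the same direction there. For genes up in Chiifu the median in Kenshin goes from 0.11 in the lowest class to 3.08 in the highest.

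Within bins of brightness the agreement was about the same as over all genes. The Pearson correlation of the lines lay between 0.411 and 0.549 in the 10 bins and the share with the same sign between 61.1% and 65.0%, with no steady course from dim to bright. Of the genes past 2-fold in at least 1 line, 24.1% passed in both in the same direction in the dimmest bin and 23.7% in the seventh of the 10 bins, while the 3 brightest bins gave 12.8%, 13.1% and 9.38%. Of the 68 genes in opposite directions, 34 came from the dimmest bin and 58 from the 3 dimmest.

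The PI of the shared classes at 22 °C follows in part from their choice by the ratio to 22 °C, and it is given as a description. Of the 470 genes up in both lines, 233 (49.6%) were at or below a PI of 500 at 22 °C in both lines, beside 5.83% of all genes tested, and 11 remained there at 12 °C. Their median PI went from 388 to 1659 in Chiifu and, in Kenshin, from 397 to 2342. The 568 genes down in both had a median PI that went from 2301 to 697 in Chiifu and, in Kenshin, from 2081 to 502, and 201 of them (35.4%) ended at or below 500 in both lines, beside 6.77% of all genes. The absolute ratio was larger in Kenshin for 275 of the 470 (58.5%) and for 375 of the 568 (66%). The lines differed by less than 2-fold in their ratios for 343 of the 470 and 446 of the 568. After 3 h at 28 °C the median log2 ratio to 22 °C of the 470 was 0.4 in Chiifu and 0.72 in Kenshin, beside 1.63 and 1.9 at 12 °C, and that of the 568 was -0.58 and -0.44, beside -1.46 and -1.78. These ratios share the 22 °C samples and were not compared further.

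In 3 of the 4 classes of genes that passed 2-fold in a single line, the lines differed more at 22 °C than at 12 °C. The 722 genes up in Chiifu alone had median PIs of 795 in Chiifu and 1941 in Kenshin at 22 °C, and of 2215 and 2219 at 12 °C. The 1081 genes down in Kenshin alone had medians of 1032 in Chiifu and 1977 in Kenshin at 22 °C, and of 805 and 594 at 12 °C. The lines were closer at 12 °C than at 22 °C for 77% and 66% of these genes, and for 71.8% of the 579 genes down in Chiifu alone, beside 57.0% of the 22577 genes under 2-fold in both lines. The 883 genes up in Kenshin alone went the other way on the median, with 1160 and 621 at 22 °C and 1411 and 1857 at 12 °C, and 48.4% of them had closer lines at 12 °C. In the 44 genes up in Chiifu and down in Kenshin, Chiifu had a median PI of 200 and Kenshin one of 1710 at 22 °C, and the lines had 661 and 549 at 12 °C. The 22 °C values enter both the choice of these classes and the comparison, so they are given as a description.

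The 2 largest shared rises were of about 7 on the log2 scale. For Bra020846, first by the smaller ratio of the lines, Chiifu had a PI of 17.5 at 22 °C and 9956 at 12 °C, and Kenshin had 24.5 and 10124. Both values at 22 °C were below the random-sequence control feature (27.1 and 27.9), and the PI was at least 368-fold higher at 12 °C in Chiifu and at least 362-fold higher in Kenshin when set against that feature. After 28 °C it stood at 39.2 in Chiifu but at 8832 in Kenshin. Bra013620 had 134 and 26095 in Chiifu and 78.4 and 16447 in Kenshin, with log2 ratios of 7.15 and 7.01, and at 28 °C it had 242 and 21708. In both genes the 12 °C samples stood far above both 22 °C samples, while at 28 °C the lines parted. The files and the reference table used here give neither gene a name.

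The largest shared falls were smaller. Bra021110 went from 12407 to 251 in Chiifu and, in Kenshin, from 7352 to 266 (log2 ratios -5.37 and -4.55), and its PI at 28 °C was 4809 and 5442. Bra017939 went from 2959 to 135 and from 1694 to 103 (log2 ratios -4.02 and -3.51), with 2198 and 3752 at 28 °C. In both genes the 12 °C sample was the lowest of the 3 samples of each line. Over the 12 largest shared rises the smaller ratio lay between 4.59 and 7.09, and over the 12 largest shared falls it lay between -2.67 and -4.55.

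Some genes past 2-fold in both lines had neighbouring identifiers. The gene numbered just before Bra013620 is a lipid-transfer protein gene, Bra013619, of a family of small proteins that carry lipids between membranes, and its log2 ratios were 0.57 in Chiifu and 0.03 in Kenshin. The genes with the next 2 numbers after Bra013620 had log2 ratios of 6.58 and 6.79 in Chiifu and 6.04 and 6.0 in Kenshin, and the third had 0.42 and 0.49. This run was looked at after its values were seen. Of the 470 genes up in both lines, 47 (10%) had a gene with an adjacent number in the same class, beside 638 of all 26948 genes (2.37%), and of the 568 genes down in both, 73 (12.9%) did, beside 752 (2.79%). Positions in the genome and probe sequences were not used here, and whether neighbours share sequence that binds the same RNA was not tested.

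**Figure D4:**
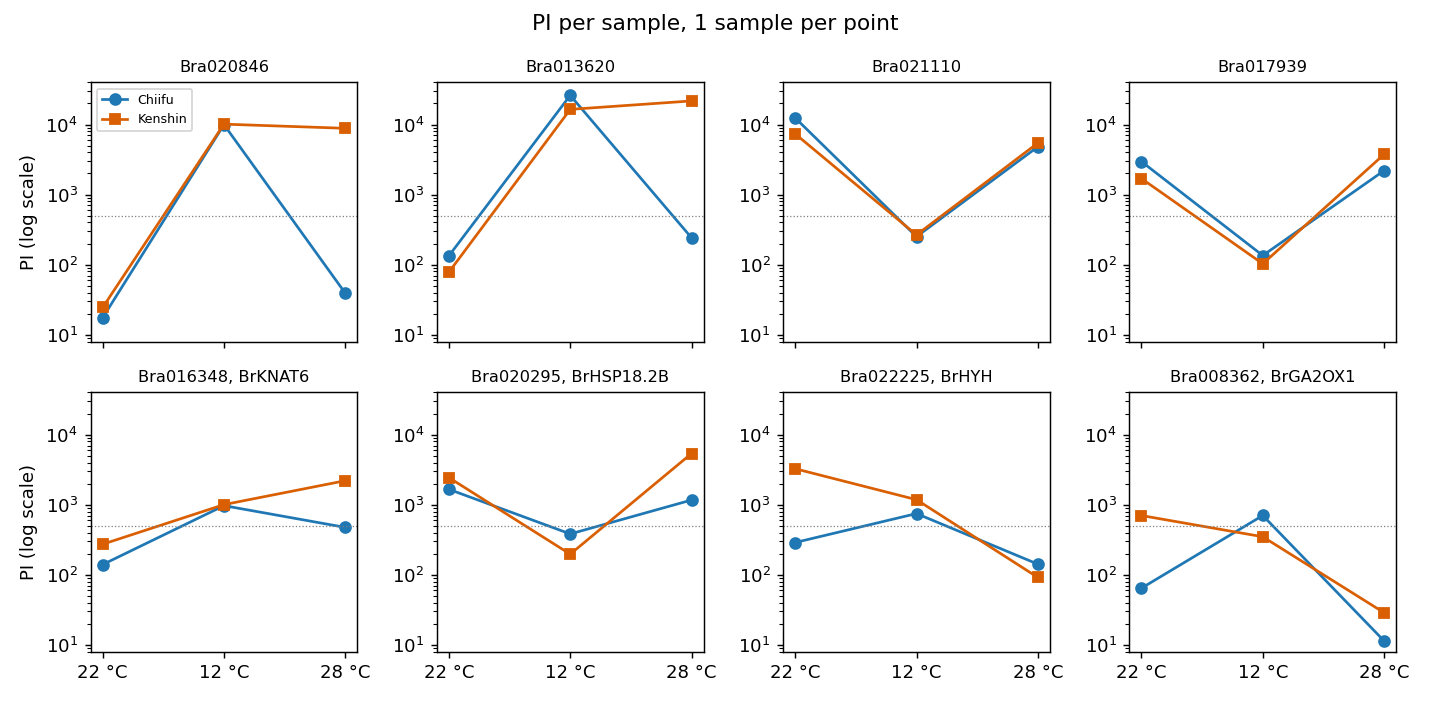
PI of 8 genes in each of the 6 samples (log axis; 1 sample per point), at 22 °C, 12 °C and 28 °C after 12 °C in Chiifu (blue circles) and Kenshin (orange squares), with a dotted line at a PI of 500. The top row holds the largest shared rises and falls, where the 12 °C values of the lines lie close together, and the bottom row holds listed genes, among them *BrHYH* with 289 to 748 in Chiifu and 3262 to 1180 in Kenshin from 22 to 12 °C.

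limma was fitted on log2(PI + 50) over all 6 samples, blocking for line, to test for a change common to Chiifu and Kenshin. It had 2 residual degrees of freedom and called 0 of 26948 genes (0%) at a Benjamini-Hochberg adjusted p of 0.05, with 0.0963 as the lowest value reached. Without adjustment, 3489 genes had a p under 0.05, with 1492 of them higher and 1997 lower at 12 °C, where chance gives 1347.4. The fit takes its spread from the difference between the lines, also at 28 °C, and draws it toward a spread pooled over all genes. When the 2 samples at 28 °C were left out, 10 genes passed (0.0371%), all 10 higher at 12 °C, with a smallest adjusted p of 0.0199. A limma fit in which the spread follows the intensity, chosen after seeing the data, called 52 genes, 31 higher and 21 lower. The fitted log2 change of Bra020846 was 7.15 with a standard error of 1.77 over all 6 samples (limma adjusted p = 0.247) and of 0.2 over the 4 samples (adjusted p = 0.0199). Because its PI at 22 °C was below the random-sequence feature, this change, its error and its p depend on the 50 added, and the log2 ratios were 9.15 and 8.69 with nothing added. Bra013620 had 7.08 with a standard error of 1.84 (adjusted p = 0.258), and 0.2 over the 4 samples (adjusted p = 0.0199). For Bra021110 the change was -4.96 with a standard error of 0.29 (limma adjusted p = 0.113), and for Bra017939 it was -3.77 with 0.41 (adjusted p = 0.134). Over the 4 samples both falls had a limma adjusted p of 0.064. The intensity-dependent fit called both falls (adjusted p = 0.0114 for Bra021110 and 0.047 for Bra017939) and neither rise (0.143 for Bra020846 and 0.152 for Bra013620). These errors combine how far the lines differ in a gene with a spread pooled over all genes, and they are not errors between replicates. The pooled spread weighed 2.61 degrees of freedom beside 2 residual ones over all 6 samples. Over the 4 samples it weighed 3.41 beside 1, so errors of 0.2 there rest mostly on the pooled spread.

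The genes that the study names give a view of the heat and light pathways in the cold. The 99 genes fall into 10 lists by role, and 98 passed the intensity minimum. *BrROF1* (Bra013224) did not, with 59.1 as its highest PI. Of the 98, 21 were up and 8 down in Chiifu, and 6 were up and 19 down in Kenshin. Of all genes tested, 4.59% were up and 4.35% down in Chiifu, and 5.11% were up and 6.28% down in Kenshin. Past 2-fold in both lines, 1 was up and 5 were down, 8 were up in Chiifu and down in Kenshin, and 58 stayed under 2-fold in both. The shares of all genes tested in these classes were 1.74%, 2.11%, 0.163% and 83.8%. The median log2 ratio of the 98 was 0.15 in Chiifu and -0.09 in Kenshin, beside -0.02 and 0.02 for all genes tested. By its text, the study chose 64 of the listed genes for a higher value in Kenshin than in Chiifu at 22 °C and after warming. Among them, *BrHSP17.6II* (Bra006137) was lower in Kenshin at 28 °C, with 2036 beside 2513 in Chiifu. The unknown-protein gene Bra020728 was lower there too, with 4854 beside 4910. Others were higher in Kenshin by less than the 2-fold that the study's text gives, such as *BrHSFA2* with 1786 beside 1256. The study lists the 64 genes with the changes in Kenshin from 12 and from 22 to 28 °C. It chose 6 more for a lower value in Kenshin at 12 °C and at 28 °C. The 22 °C samples and the Kenshin 12 °C sample thus enter both the choice and the ratios here. These counts are therefore no independent sign of a direction.

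Heat shock factors switch on chaperone genes. *BrHSFA2* (Bra000557), the factor that in Arabidopsis sustains acquired heat tolerance, had a PI that went from 67.7 at 22 °C to 223 at 12 °C in Chiifu, with 256 and 542 in Kenshin. Its log2 ratios were 1.21 and 0.95, the latter just under 2-fold, and 3 of these 4 values were below 500. Its calls depended on the amount added, since the ratios were 1.72 and 1.08 with nothing added and 0.94 and 0.85 with 100 added. *BrHSFB2A* (Bra029292), a factor of the class that lacks an activation domain, had log2 ratios of -0.04 and -0.54. *BrROF2* (Bra037477), an FK506-binding protein that acts with HSFA2 in Arabidopsis, went from 309 to 283 in Chiifu and, in Kenshin, from 1632 to 352, with log2 ratios of -0.11 and -2.07. *BrROF2* in Kenshin stood far above Chiifu at 22 °C and near it at 12 °C.

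The 21 sHSP genes showed no common direction. In Chiifu 4 were up and 2 down, and in Kenshin 4 were up and 8 down, beside 4.59% and 4.35% of all genes in Chiifu and 5.11% and 6.28% in Kenshin. The medians were 0.1 and -0.25. Past 2-fold in both lines, *BrHSP18.2B* (Bra020295), a cytosolic class I chaperone, went from 1659 to 383 in Chiifu and, in Kenshin, from 2436 to 197, with log2 ratios of -1.98 and -3.33. The *BrHSP20-L* gene Bra018216 went from 10773 to 3454 and from 7716 to 3159, with ratios of -1.63 and -1.28. Both were lower at 12 °C than at 22 °C in each line. Of the other *BrHSP18.2* copies, *BrHSP18.2C* (Bra006697) had ratios of -0.51 and -0.78, and *BrHSP18.2A* (Bra002539) was at 73.2 and 259 in Chiifu and at 206 and 57.8 in Kenshin, with ratios of 1.33 and -1.25. The chloroplast *BrHSP21* (Bra026317) had 45.3 and 166 in Chiifu and 310 and 53.7 in Kenshin (1.18 and -1.79), and *BrHSP17.6II* (Bra006137) had 51.7 and 271, and 909 and 310 (1.66 and -1.41). These 3 opposite genes were dim, and no value of theirs at 22 or 12 °C was over 500 except that of *BrHSP17.6II* in Kenshin at 22 °C. Among other bright members, *BrHSP20-L* genes had ratios of 0.97 and -0.14 (Bra018384), 0.56 and -1.09 (Bra018383) and 1.12 and -0.25 (Bra031725). The alpha-crystallin type gene Bra022079 stood at 0.55 and 1.1.

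Among the 11 other chaperone and protein quality control genes, 2 were down in Chiifu, beside 4.35% of all genes, and 0 passed 2-fold in Kenshin, where 5.11% of all genes were up and 6.28% down. The 2 were *BrMPSR1-1* (Bra012441) and *BrMPSR1-2* (Bra016290), which encode ubiquitin ligases for misfolded proteins. PI went from 4542 to 1527 and from 7671 to 2322 in Chiifu, while Kenshin went from 2633 to 1404 and from 2674 to 1891, with log2 ratios of -1.54 and -1.7 in the former and of -0.88 and -0.49 in the latter line. The pair was lower at 12 °C in both lines, and further in Chiifu. The bright *BrHSP70* gene Bra001457, a folding chaperone, had 0.67 and -0.53, and the *BrHSP101* disaggregase gene Bra015922 had 0.42 and 0.05.

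Of the 5 light and temperature sensing genes, 4 stayed under 2-fold in both lines, beside 83.8% of all genes. *BrPHYB* (Bra022192), a phytochrome photoreceptor that also acts as a thermosensor, went from 13874 to 10184 in Chiifu and, in Kenshin, from 16575 to 11087 (-0.44 and -0.58). *BrPIF4* (Bra000283), the growth-promoting factor that phytochrome B restrains, went from 19533 to 12261 and from 13610 to 9359 (-0.67 and -0.54). Both were lower at 12 °C in each line by less than 2-fold. The exception was the dimmer *BrPHYB* copy Bra001650, with 717 and 770 in Chiifu and 402 and 1083 in Kenshin, with ratios of 0.1 and 1.33.

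The 6 light-growth regulators went in opposite directions in the lines. They are the *BrHYH* genes, homologues of the light-signalling factor HY5, the CONSTANS-like genes *BrCOL1* and *BrCOL2*, and *BrGA2OX1*, which inactivates gibberellin. In Chiifu all 6 were up, beside 4.59% of all genes, with a median of 1.4. In Kenshin 5 were down, beside 6.28% of all genes, with a median of -1.4. The study chose the 6 genes for being lower in Kenshin at 12 °C, so only the values in Chiifu were free of the choice. The *BrHYH* gene Bra022225 went from 289 to 748 in Chiifu and, in Kenshin, from 3262 to 1180, and Bra021258 from 186 to 610 and from 1328 to 529. *BrCOL1* (Bra023541) went from 145 to 576 and from 1801 to 661. *BrGA2OX1* (Bra008362) went from 64.5 to 702 in Chiifu, the highest ratio of the list at 2.71, and from 701 to 349 in Kenshin, where its ratio of -0.91 missed 2-fold. With nothing added, its PI in Kenshin at 12 °C was 0.497 times that at 22 °C, just past 2-fold. In each of the 6 genes the lines lay farther apart at 22 °C than at 12 °C. This follows in part from the choice, which favours a high value in Kenshin at 22 °C.

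Of the 14 other transcription factors, 6 were up and 1 down in Chiifu and 1 was up and 2 down in Kenshin, with medians of 0.69 and -0.02, and all 14 had the lower ratio in Kenshin, beside 47.8% of all genes. Of these 14, 13 were chosen by the study for a higher value in Kenshin at 22 °C, a value that enters the ratio. *BrKNAT6* (Bra016348), a homeobox factor of the shoot meristem, was the only listed gene up in both, from 140 to 970 in Chiifu and, in Kenshin, from 273 to 1004 (2.42 and 1.7). The MYB-like gene Bra006853 was down in both, from 1808 to 699 and from 741 to 255 (-1.31 and -1.37). The Dof-factor gene Bra012119 had 1.49 and -0.23. Among 21 transport and metabolism genes, 3 were up and 2 down in Chiifu and 0 up and 2 down in Kenshin. Beside each list of this paragraph stand 4.59% of all genes up and 4.35% down in Chiifu, and 5.11% and 6.28% in Kenshin. The LEA hydroxyproline-rich gene Bra028562, of a family with water-stress proteins, was down in both, from 215 to 77.6 and from 575 to 123 (-1.06 and -1.85). *BrGLN1.3* (Bra021276), a glutamine synthetase, stayed at -0.18 and 0.16, and the laccase gene *BrLAC12* (Bra009111) had 1.77 and 0.07. In the 7 genes of other or unknown function, the unknown-protein gene Bra013396 went from 103 to 15.5 and from 252 to 17.4 (-1.22 and -2.16), both values at 12 °C lying below the random-sequence feature. With that feature as a floor the ratios were -0.99 and -1.95, so that Chiifu was just under 2-fold. Of the 7 defence and receptor genes, 1 was up in Chiifu, the jacalin-lectin gene *BrJAL22* (Bra005053) at 15.9 to 98.9 (1.18), and it had 0.89 in Kenshin. Its value of 15.9 was below the random-sequence feature (27.1), and with that feature as a floor, a setting chosen after seeing the data, the ratio was 0.95 and under 2-fold. The 3 *BrXPO1A* exportin genes, nuclear export receptors, lay between -0.05 and 0.02 in Chiifu and between -0.29 and 0.22 in Kenshin.

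**Figure D5:**
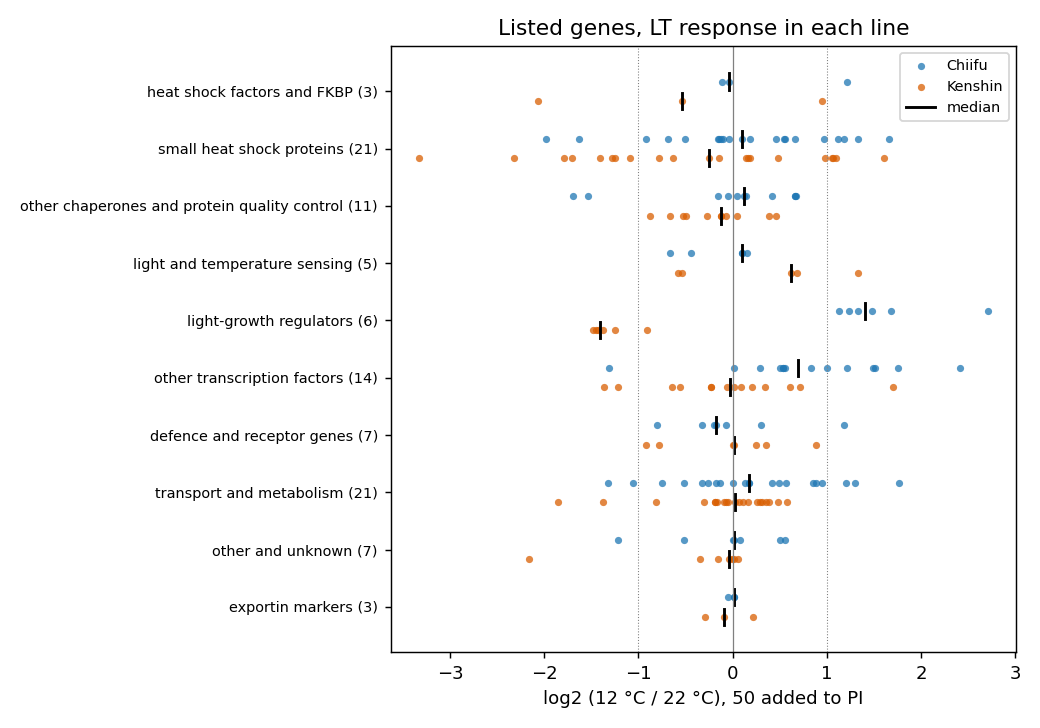
Log2 ratio of 12 over 22 °C (x axis, 50 added to PI) for the 98 listed genes above the minimum, by list on the y axis with the number of genes, in Chiifu (blue) and Kenshin (orange). Black bars are list medians and dotted lines 2-fold; the light-growth list has medians of 1.4 and -1.4, and the exportin genes lie near 0.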

How the data were processed

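PI values are intensity values on the linear scale that the authors deposited, 1 per gene and sample; the submitters' processing notes name RMA, and the version and scanner software are not given in the sources used here. According to its text, the study repeated the experiments and averaged them, but the labels give 1 sample per line and temperature, and the deposited design text also speaks of replicates and a water treatment that no label holds. Values were used as deposited. From them, log2 ratios of 12 over 22 °C were computed per line with 50 added, for genes above 500 in at least 1 of 6 samples. All 6 value columns were mapped to a sample, and the 15 control features were left out of all counts. limma 3.58.1 in R 4.3.3 (lmFit, eBayes) fitted log2(PI + 50) on line and temperature, with Benjamini-Hochberg adjustment over 26948 genes. Other steps used Python 3.11.15, pandas 2.3.3 and numpy 2.4.6, and both parts were tested on simulated data. The number of arrays limits the precision.

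Named genes are the 2 largest shared rises and falls, ranked by whichever line had the smaller ratio, and the genes the study names: those past 2-fold the same way in both lines, then opposite, then up to 4 bright members of a list. Others were chosen after their values were seen. The members, lists and tests were chosen with earlier results of these data known. Alternatives were 0 or 100 added, other minimums, fold cutoffs of 1.5 and 3, quantile normalization, median scaling, and other fits. Sample numbers pair nothing beyond the line, which is the block of the fit.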

Additional observations from a re-analysis of the deposited data

Results flagged for a closer look

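The lines moved in opposite directions past 2-fold in 68 genes (0.252% of those tested). Of these, 44 were up in Chiifu and down in Kenshin (0.163%) and 24 were down in Chiifu and up in Kenshin (0.0891%). With 1 sample per line and temperature, this difference was not tested. Among the listed genes there were 8, and each was up in Chiifu and down in Kenshin. The study chose 7 of the 8 on values of these samples, so their direction is no independent sign. The log2 ratios in Chiifu and Kenshin were 1.18 and -1.79 for *BrHSP21* (Bra026317), 1.33 and -1.25 for *BrHSP18.2A* (Bra002539), and 1.66 and -1.41 for *BrHSP17.6II* (Bra006137). They were 1.24 and -1.43 for Bra022225 and 1.48 and -1.25 for Bra021258, both *BrHYH*, and 1.68 and -1.38 for *BrCOL1* (Bra023541). The *BrCOL2* genes had 1.13 and -1.45 (Bra021464) and 1.33 and -1.48 (Bra001043).

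The array also carries 14 control features named sGFP_Barcds that enter none of the counts. They read between 9.7 and 1517, the highest in Chiifu at 28 °C, while the feature of random sequence read between 26.9 and 30.5. A feature of the group and its antisense partner went from 585 to 214 and from 537 to 192 between 22 and 12 °C in Kenshin (log2 ratios -1.26 and -1.28), and from 234 to 154 and from 211 to 137 in Chiifu. Of all 15 control features, 2 thus passed 2-fold in Kenshin and 0 in Chiifu.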

How the results depend on the processing

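The 2-fold counts over all genes, the correlations and the list counts of each line stayed within 1.5 times their value (0.05 for a correlation) under 0 or 100 added, other minimums, quantile normalization and median scaling, with these exceptions. With nothing added, 106 genes went in opposite directions. The counts of listed genes past 2-fold in both lines, the same way or opposite, also depended on the amount added. With nothing added, the ratios of *BrHSFA2* were 3.29 in Chiifu and 2.12 in Kenshin, and those of *BrJAL22* were 6.24 and 3.03, so both were up in both lines. With 100 added, Bra028562 and Bra013396 were no longer 2-fold down in Chiifu. With no intensity minimum, the Pearson correlation was 0.433, the Spearman correlation 0.32 and the share with the same sign 60.4%. At a fold cutoff of 3, 465 genes were up and 321 down in Chiifu, 545 and 700 in Kenshin, 176 and 151 in both, and 8 in opposite directions. At 1.5, these were 3097 and 3105, 3303 and 3541, 1175 and 1478, and 415. Genes past 2-fold in Kenshin outnumbered those in Chiifu in all of these settings that kept 2-fold. No scaling moved the median ratio by over 0.1, and the share of higher genes moved by under 10 percentage points.

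In the limma fits, leaving out each sample in turn gave between 0 and 10 genes called and between 1823 and 4031 genes at an unadjusted p under 0.05. Leaving out either 28 °C sample is the same fit as the 4 samples alone, which called 10. The fit with no replicate block called 0, with 2114 genes at an unadjusted p under 0.05, and the fit with an intensity-dependent spread called 52. The other settings called 0. No sample could be left out of the counts, since each ratio needs both samples of its line. Leaving out samples, the intensity-dependent spread and the floor at the random-sequence feature were chosen after seeing the data. Precision is limited by 1 deposited value per condition, and the spread of the ratios was widest at low PI.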
